A study of Rattus norvegicus with 59 samples.

Results

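The comparison described here asks which transcripts moved when drugs were added to high glucose. Rat INS-1E cells in HG + drugs were set against cells in HG alone, using 39 of the 59 RNA libraries of the series, 19 from HG + drugs and 20 from HG. HG + drugs cells were kept in 20 mM glucose for 72 h, and during the final 48 h the medium also held exendin-4 (50 nM), metformin (250 μM) and, as the sodium salt, salicylate (250 μM), renewed after 24 h. HG cells were kept in 20 mM glucose for 72 h without drugs. The 20 NG libraries (11.1 mM glucose, 72 h) serve as a second reference, since the comparison also covers genes that moved with drugs without a detected change with HG. Libraries were taken by their treatment labels. HG + drugs libraries carry numbers 1 to 20, with number 16 absent from the series, so 19 numbers have a library in both groups. INS-1E is an established rat insulinoma line that secretes insulin. The drugs were given only as a mixture, so the part of each drug cannot be told apart.

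Exendin-4 is an agonist of the GLP-1 receptor, which couples to Gs in β-cells, raises cyclic AMP and, through protein kinase A and Epac, increases insulin secretion in the presence of glucose. Protein kinase A phosphorylates the transcription factor CREB, which binds the cyclic AMP response element. Metformin inhibits complex I of the respiratory chain and activates AMPK indirectly, while salicylate binds AMPK directly and at higher doses dampens NF-κB signalling. Chronic high glucose in β-cells is known to raise glycolytic and lipogenic genes through the transcription factor ChREBP (Mlxipl) and its partner Mlx, and to lower insulin and other maturity genes.

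Values are FPKM, fragments scaled to the length of the transcript and to the total of the library. Where 3 levels are given for a group, they are the lowest, the median and the highest library. Differences are HG + drugs minus HG of log2(FPKM + 1), where low transcripts show less than their full change, with the standard error (SE) from limma over the 19 and 20 libraries. The adjusted p is the Benjamini-Hochberg value over 10660 transcripts, those averaging 1 FPKM or more, and a transcript was called where it was under 0.05. The estimated depth was 7.66 to 9.76 M reads in HG + drugs and 7.05 to 10.3 M in HG. At the median depth of all libraries (8.61 M), 1 FPKM was about 13.9 reads for a transcript of 1816 bases, the median length. Ins1 and Ins2 together took 11.1% ± 1.95 (SD, n = 19) of the summed FPKM in HG + drugs, 9.41% ± 1.66 (n = 20) in HG and 14.1% ± 1.87 (n = 20) in NG. Of 15 β-cell markers, 14 were in the table, and all 14 averaged at least 1 FPKM. Markers of acinar, ductal, endothelial and fibroblast cells summed to at most 0.38 FPKM per library for each type. Those of macrophages summed to at most 2.29 FPKM in HG + drugs, 1.13 FPKM in HG and 1.46 FPKM in NG, and the epsilon-cell marker Ghrl reached 4.78, 3.67 and 3.70 FPKM in these groups, while Gcg, which encodes glucagon, was expressed, so that the alpha-cell markers summed to a median of 1120 FPKM in HG + drugs, 1134 FPKM in HG and 914 FPKM in NG. In bulk RNA, fewer cells that express a gene and less of its RNA per cell cannot be told apart.

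The libraries numbered 13 stood apart from the rest. A drug score was computed for every library, which is 0 at the HG mean and 1 at the HG + drugs mean over the tested transcripts, with the means taken without libraries of the same number. It ran from 0.29 to 1.10 in HG + drugs (median 0.77, n = 19). In HG it ran from -0.061 to 0.73 (median 0.19, n = 20). The NG libraries, which had no drugs, scored 0.859 or more, most of them above the highest HG + drugs library. The score is thus not specific to drugs, since NG libraries also score high. The lowest score of HG + drugs (0.29) and the highest of HG (0.73) both belonged to number 13, and in the 18 other numbers the HG + drugs library scored above its HG library. Of the 923 transcripts called, 756 (81.9%) went against their own direction in number 13, compared with 4.3% to 17.3% in each of the other numbers. Each of both libraries scored nearer to the mean of the other group than to that of its own. So did number 11 of HG + drugs (0.337) and numbers 4 (0.504) and 10 (0.531) of HG. Only in number 13 did the HG library score above the HG + drugs library, so the labels of number 13 are in doubt. Whether both libraries of number 13 were exchanged was not tested. Both were kept under their labels, and levels of number 13 set the lowest or highest value of a group for some genes. Counts of all calls, of calls not made with HG and of most lists are also given without them, and 917 of the 923 were still called in that fit. Counts of overlap between groups, of intervals of HG minus NG and of promoter motifs rest on all libraries.

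**Figure D1:**
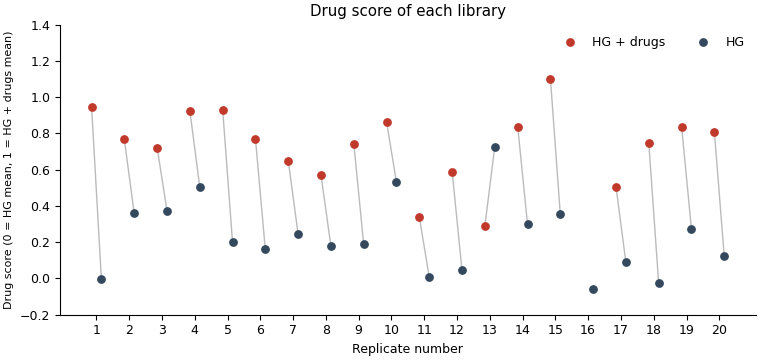
Drug score of each library (y axis, no unit, 0 at the HG mean and 1 at the HG + drugs mean) by replicate number (x axis), with HG + drugs in red, HG in dark blue and a grey line between libraries of equal number. HG + drugs lies above HG in every shared number other than 13, where HG + drugs scored 0.29 and HG 0.73.

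Promoter stretches are shown for genes whose values carry the results below and whose promoters hold a motif of the drug pathway or of lysosomal genes. Secretogranin II (Scg2), a granule protein and known CREB target, rose with drugs, while Dusp1, a CREB target and MAP kinase phosphatase, and Cbx8, a polycomb subunit, fell. The acid hydrolase genes Gaa and Ctsd rose. Each stretch is the 200 bases before the RefSeq start on the gene's own strand (build GRCr8), and capitals mark the cyclic AMP response element TGACGTCA in the first 3 and the E-box CACGTG in the others. The stretches of Dusp1 and Cbx8, which fell, also hold a CACGTG, left in small letters.
Scg2, chr9:88256867-88257066, minus strand: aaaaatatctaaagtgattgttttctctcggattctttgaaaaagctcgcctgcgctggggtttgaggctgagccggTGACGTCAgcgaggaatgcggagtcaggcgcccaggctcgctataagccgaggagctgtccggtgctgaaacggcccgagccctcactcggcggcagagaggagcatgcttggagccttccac
Dusp1, chr10:17184653-17184852, plus strand: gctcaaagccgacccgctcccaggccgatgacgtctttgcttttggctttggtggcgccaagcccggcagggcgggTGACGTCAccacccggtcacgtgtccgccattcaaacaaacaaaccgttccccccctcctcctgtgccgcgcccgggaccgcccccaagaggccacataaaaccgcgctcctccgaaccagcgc
Cbx8, chr10:104795501-104795700, minus strand: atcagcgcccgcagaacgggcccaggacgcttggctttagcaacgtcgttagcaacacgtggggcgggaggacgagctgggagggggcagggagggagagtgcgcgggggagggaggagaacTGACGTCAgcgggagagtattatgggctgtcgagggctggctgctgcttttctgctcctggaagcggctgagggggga
Gaa, chr10:105028155-105028354, plus strand: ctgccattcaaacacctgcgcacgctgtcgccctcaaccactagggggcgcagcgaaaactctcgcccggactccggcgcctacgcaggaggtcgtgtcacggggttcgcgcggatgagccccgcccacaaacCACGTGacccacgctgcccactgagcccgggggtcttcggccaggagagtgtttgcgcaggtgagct
Ctsd, chr1:206968822-206969021, minus strand: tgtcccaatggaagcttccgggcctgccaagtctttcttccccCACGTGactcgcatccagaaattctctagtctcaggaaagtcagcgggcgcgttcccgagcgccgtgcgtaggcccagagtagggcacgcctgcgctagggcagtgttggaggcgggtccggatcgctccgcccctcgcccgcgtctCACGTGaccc

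RefSeq promoters of 300 bases (250 before the start and 50 after) were found for 8241 of the 10132 symbols tested. On either strand, TGACGTCA was present in 5 of 337 promoters of raised genes (1.48%), 14 of 380 of lowered genes (3.68%) and 290 of 8241 tested (3.52%), compared with 1.91% of all 27457 RefSeq promoters. Its first 5 letters, TGACG, which every full element contains, were in 27.6% of raised, 34.5% of lowered and 33.9% of tested promoters, and in 22.0% of all RefSeq promoters. CACGTG was in 45 of 337 raised (13.4%), 26 of 380 lowered (6.84%) and 811 of 8241 tested (9.84%), against 6.65% of all RefSeq promoters. These shares are descriptions of letters in a window and were not tested.

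Drugs raised 445 transcripts and lowered 478 compared to HG, 923 in all. These calls make up 8.66% of the 10660 tested (4.17% raised and 4.48% lowered), and 2344 transcripts had an unadjusted p under 0.05. The median difference was 0.0035 over all tested transcripts, 0.18 among those raised and -0.18 among those lowered. Differences were small, since 7 transcripts rose and 23 fell by more than 0.5 and none moved by more than 1. Levels in HG + drugs and HG overlapped for every transcript tested (0.0% without overlap), with number 13 kept, and overlap was not counted without it. Without the HG + drugs and HG libraries numbered 13, 1255 transcripts were called, 639 raised and 616 lowered. With the replicate number as a block in limma, 2096 were called, 1015 raised and 1081 lowered. The libraries were sequenced in 4 batches that the sources do not assign, and in the 4 sets of consecutive replicate numbers (1 to 5, 6 to 10, 11 to 15 and 16 to 20) 889 of the 923 had the same sign in every set.

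Taken by number, 15 of the 923 moved the same way in all 19 numbers and another 240 in 18 of them, and number 13 was the only exception for 214 of these. Among the 15 were Kitlg, which encodes the ligand of the receptor Kit, the lysosomal protease gene Lgmn and the calponin gene Cnn3. Kitlg had 7.40e-04, 1.44 and 2.92 FPKM in HG + drugs, against 1.38, 3.20 and 4.17 FPKM in HG and 1.82e-04, 1.08 and 1.78 FPKM in NG, and its difference with drugs was -0.78 (SE 0.13, adjusted p = 4.8e-05). Kitlg has several entries, and summed over them its difference was -0.39 (adjusted p = 1.4e-05). Lgmn, at 42.7, 55.0 and 69.0 FPKM in HG + drugs, against 51.6, 67.1 and 75.1 FPKM in HG and 33.1, 39.4 and 50.1 FPKM in NG, differed by -0.25 (SE 0.049, adjusted p = 4.1e-04). The groups overlapped in both genes, although each was lower in the HG + drugs library of all 19 numbers.

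Scg2 had the smallest adjusted p of the raised granule genes. It had 64.6, 106 and 135 FPKM in HG + drugs, against 50.4, 67.8 and 108 FPKM in HG and 68.6, 98.5 and 130.0 FPKM in NG, a difference of 0.58 (SE 0.086, adjusted p = 3.2e-06). Its lowest HG + drugs library (64.6 FPKM) and its highest HG library (108 FPKM) were those of number 13, and it was higher in 18 of 19 numbers. Within the 4 sets of numbers the differences were 0.75, 0.69, 0.28 and 0.61. Ucn3, whose product urocortin 3 is secreted by mature β-cells, had the largest rise on this scale. Its levels were 0, 2.10 and 12.8 FPKM in HG + drugs, against 0.303, 0.416 and 2.68 FPKM in HG and 1.79, 4.88 and 8.89 FPKM in NG, a difference of 0.91 (SE 0.20, adjusted p = 0.0016). Ucn3 was higher in 16 of 19 numbers. Levels of Ucn3 were low and uneven, with 1 HG + drugs library at 0.

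Several other large rises were transcripts of a few FPKM. The metallothionein gene Mt2A, whose product binds zinc and copper, had a median of 2.66 FPKM in HG + drugs, against 1.25 FPKM in HG and 4.14 FPKM in NG, and a difference of 0.69 (SE 0.18, adjusted p = 0.010). Lyzl1, a lysozyme-like gene, rose by 0.65 (SE 0.10, adjusted p = 4.1e-06) and the galactosidase-like gene Glb1l2 by 0.49 (SE 0.058, adjusted p = 1.9e-08), and in 18 of 19 numbers each was higher with drugs. Igf1, which encodes insulin-like growth factor 1, rose by 0.64 (SE 0.18, adjusted p = 0.016) as 1 of several entries, or by 0.41 (adjusted p = 0.048) summed over them. Dleu7 (0.49), RGD1564614 (0.48) and the kinase gene Tnni3k (0.46) were also among the 12 largest rises. Nsmf, Grin1 and Slc7a2 were also among the 12 largest, and each of these, like Igf1, has several entries between which Cufflinks divides reads. Summed over entries, Nsmf differed by 0.10 (adjusted p = 0.024), the NMDA receptor gene Grin1 by 0.094 (adjusted p = 0.41) and the cationic amino acid transporter gene Slc7a2 by 0.16 (adjusted p = 0.38). The single entry of Nsmf was not called when any of numbers 1, 2, 5, 6, 8, 11, 12, 14 or 18 was left out (adjusted p between 0.050 and 0.11), and that of Grin1 was not called without number 10 (adjusted p = 0.051).

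The largest falls included secreted peptides, metabolic enzymes and receptors. Prok2, which encodes the secreted peptide prokineticin 2, had 10.2, 33.8 and 106 FPKM in HG + drugs, against 37.7, 66.6 and 102 FPKM in HG and 1.38, 9.54 and 18.4 FPKM in NG, a difference of -0.94 (SE 0.22, adjusted p = 0.0024). G6pc, which encodes the glucose-6-phosphatase catalytic subunit, had 0.203, 4.54 and 10.1 FPKM in HG + drugs, against 3.21, 8.88 and 17.5 FPKM in HG and 0.736, 1.68 and 4.73 FPKM in NG, and differed by -0.91 (SE 0.19, adjusted p = 8.3e-04). G6pc was lower in 18 of 19 numbers, with number 13 as the exception. HG + drugs levels of both genes lay between those of HG and NG by their medians.

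S100a4, a calcium-binding protein gene, had a median of 15.5 FPKM in HG + drugs, against 31.3 FPKM in HG and 4.67 FPKM in NG, a difference of -0.81 (SE 0.12, adjusted p = 4.1e-06). Hbegf, a ligand of the EGF receptor, had 14.4, 33.8 and 49.0 FPKM in HG + drugs, against 36.4, 54.3 and 61.8 FPKM in HG and 12.9, 19.3 and 29.6 FPKM in NG, and differed by -0.65 (SE 0.10, adjusted p = 3.2e-06). The kinase gene Camk2a (-0.74, SE 0.12, adjusted p = 2.6e-05) and the tropomyosin gene Tpm2 (-0.59, SE 0.10, adjusted p = 6.8e-05) also fell. Snap25 and Tceb1 were among the 12 largest falls as single entries, but summed over entries they differed by -0.17 (adjusted p = 0.025) and -0.0073 (adjusted p = 0.94). The single entry of Snap25 lost its call when any of numbers 1, 3, 4, 5, 9, 10, 14, 15, 17, 18 or 20 was left out (adjusted p between 0.051 and 0.097), and that of Tceb1 when any of numbers 1, 6, 11, 15 or 18 was left out (adjusted p between 0.060 and 0.075). Kdr, which encodes the VEGF receptor 2, had the smallest adjusted p among the 12. It had 0.566, 1.06 and 2.30 FPKM in HG + drugs, against 1.04, 2.58 and 3.88 FPKM in HG and 0.626, 1.28 and 2.26 FPKM in NG, a difference of -0.74 (SE 0.085, adjusted p = 1.3e-08), or -0.81 (adjusted p = 1.1e-11) without the libraries numbered 13. Of its levels, the highest in HG + drugs (2.30 FPKM) and the lowest in HG (1.04 FPKM) were both number 13. In the 4 sets of numbers Kdr differed by -0.73, -0.89, -0.53 and -0.78.

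**Figure D2:**
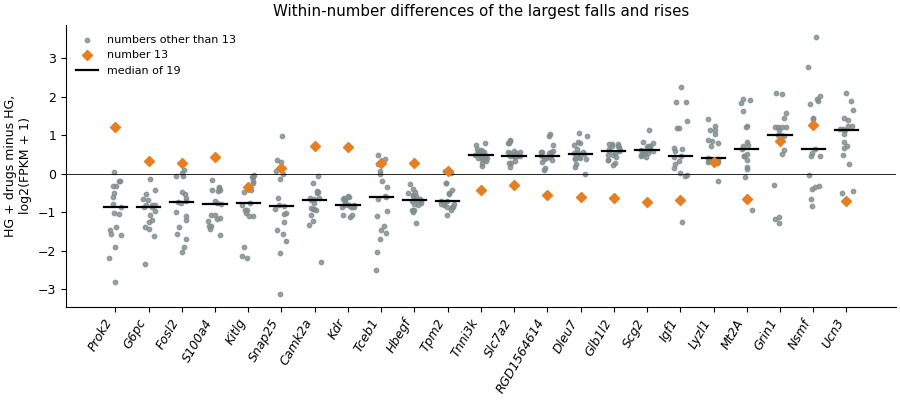
Difference between the HG + drugs and the HG library of each number (y axis, log2(FPKM + 1)) for 11 of the 12 largest falls and the 12 largest rises (x axis). Points are numbers, the orange diamond is number 13 and the bar is the median of 19. Scg2, Kdr and Hbegf lie on one side of 0 in every number other than 13, while Snap25, Tceb1, Nsmf and Grin1 scatter to both sides.

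Among the transcripts with the smallest adjusted p, Fzd1, a Wnt receptor gene, fell, at -0.50 (SE 0.056, adjusted p = 1.3e-08), C1galt1, the core glycosyltransferase of mucin-type O-glycans, at -0.37 (SE 0.043, adjusted p = 1.3e-08) and the adhesion molecule gene L1cam at -0.40 (SE 0.048, adjusted p = 1.9e-08). All 3 were lower with drugs in 18 of 19 numbers. Fabp5, a fatty acid binding protein gene, had a median of 477 FPKM in HG + drugs, against 609.8 FPKM in HG and 298 FPKM in NG, a difference of -0.40 (SE 0.051, adjusted p = 1.1e-07). Scarb1, a lipoprotein receptor gene, rose by 0.18 (SE 0.025, adjusted p = 1.7e-06) and Tmem164 by 0.25 (SE 0.036, adjusted p = 1.7e-06). These 6 genes were chosen after their values were seen.

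**Figure D3:**
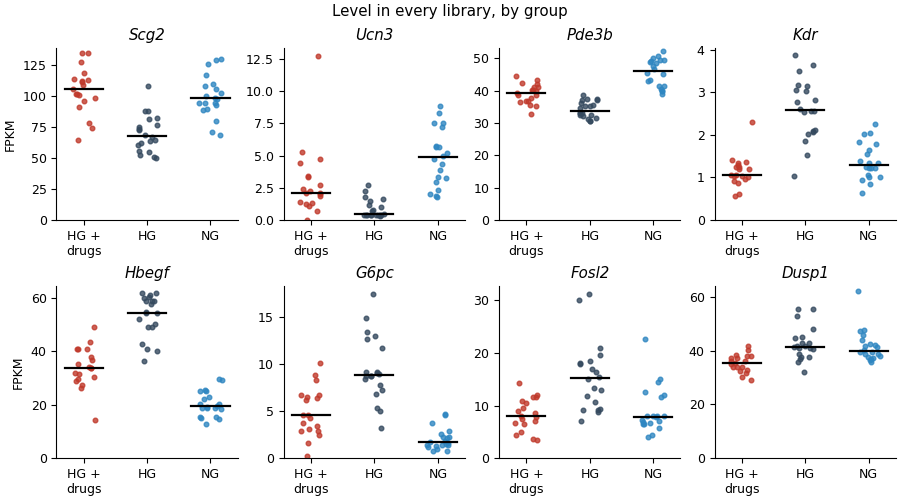
FPKM of 8 genes in every library (y axis, linear from 0), by group from left to right HG + drugs (n = 19), HG (n = 20) and NG (n = 20), with the median as a bar. Scg2, Ucn3 and Pde3b have higher medians in HG + drugs than in HG (106 against 67.8 FPKM for Scg2), while Kdr, Hbegf, G6pc, Fosl2 and Dusp1 have lower ones, and the groups overlap in all 8.

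Glp1r, the receptor that exendin-4 binds, had 63.7, 76.9 and 103 FPKM in HG + drugs, against 63.9, 73.8 and 88.7 FPKM in HG and 76.7, 95.8 and 117 FPKM in NG. Its difference of 0.074 did not pass the test (95% interval -0.022 to 0.17, adjusted p = 0.39), but Glp1r was higher in 15 of 19 numbers and passed with a replicate block (limma, adjusted p = 0.025). In GLP-1 receptor signalling, 1 of 30 measured members rose and 2 fell, a share near the 8.66% of all tested transcripts, and with a replicate block 4 rose and 5 fell. Pde3b, a phosphodiesterase that breaks down cyclic AMP, had 32.8, 39.4 and 44.7 FPKM in HG + drugs, against 30.7, 33.9 and 38.7 FPKM in HG and 39.0, 46.1 and 52.2 FPKM in NG, a difference of 0.19 (SE 0.037, adjusted p = 3.9e-04), and was higher in 18 of 19 numbers. Prkar2b, a regulatory subunit of protein kinase A, fell, at -0.15 (SE 0.041, adjusted p = 0.0092). Arrb2, which encodes β-arrestin 2 and takes part in receptor desensitization, had a difference of -0.12 (SE 0.035, adjusted p = 0.025). This call was lost without number 1 (adjusted p = 0.056), 2 (0.054), 9 (0.056) or 11 (0.064).

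Of 32 measured targets of cyclic AMP and CREB, 5 fell with drugs and 1 (Scg2) rose, with a median of -0.11 over the 32, compared with 0.0035 over all tested transcripts. Of all tested transcripts, 4.48% fell and 4.17% rose. In the fit that left out number 13, 7 of the 32 fell and Scg2 rose. Fosl2, an AP-1 subunit, had 3.40, 7.99 and 14.2 FPKM in HG + drugs, against 7.11, 15.2 and 31.3 FPKM in HG and 3.98, 7.87 and 22.7 FPKM in NG, a difference of -0.82 (SE 0.17, adjusted p = 7.6e-04). Junb, another AP-1 subunit, had a median of 5.42 FPKM in HG + drugs, against 6.66 FPKM in HG and 5.08 FPKM in NG, and a difference of -0.33 (SE 0.073, adjusted p = 0.0016). Dusp1, whose promoter stretch with a TGACGTCA is shown above, had 28.9, 35.3 and 41.7 FPKM in HG + drugs, against 31.9, 41.4 and 55.7 FPKM in HG and 35.8, 39.9 and 62.4 FPKM in NG, a difference of -0.26 (SE 0.055, adjusted p = 9.3e-04). HG + drugs overlapped HG in each of these genes, and Dusp1 in HG + drugs was also below NG by its median. Nfil3, a bZIP repressor gene (-0.37, adjusted p = 0.038), and the nuclear receptor gene Nr4a2 (-0.31, adjusted p = 0.044) passed narrowly. Nfil3 was not called when any of numbers 2, 4, 6, 8, 9, 10, 15, 17 or 19 was left out (adjusted p between 0.053 and 0.071). Nr4a2 was not called when any of numbers 1, 2, 4, 5, 6, 7, 8, 9, 10, 14, 15, 17, 18 or 20 was left out (adjusted p between 0.051 and 0.078).

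Respiratory complex I, which metformin inhibits, had no transcript called by limma among 35 measured subunit genes (median -0.013), and 3 had an unadjusted p under 0.05. The AMPK list had 2 of 27 lowered and none raised, also near the share of all tested transcripts. These were Acaca, the acetyl-CoA carboxylase that AMPK phosphorylates, at a median of 31.8 FPKM in HG + drugs, against 37.6 FPKM in HG and 16.7 FPKM in NG, and a difference of -0.25 (SE 0.053, adjusted p = 7.2e-04), and the sestrin gene Sesn1, at -0.16 (SE 0.046, adjusted p = 0.019). For the AMPK catalytic subunits Prkaa1 and Prkaa2 the 95% intervals of the difference were -0.083 to 0.056 and -0.11 to 0.19. Prkaa1 had a median of 13.7 FPKM in HG + drugs, against 13.6 FPKM in HG, and Prkaa2 a median of 15.9 FPKM in HG + drugs, against 15.8 FPKM in HG. Of 22 measured NF-κB and inflammation genes, 1 rose and none fell. It was Csf1, which encodes a macrophage growth factor, at 0.18 (SE 0.044, adjusted p = 0.0039). MAP kinase feedback had 3 of 32 lowered, Dusp1, the ERK1 gene Mapk3 (-0.11, SE 0.024, adjusted p = 0.0015) and Spry2, an inhibitor of receptor tyrosine kinase signalling (-0.26, SE 0.068, adjusted p = 0.0079). Hypoxia and angiogenic signalling had 2 of 27 raised (Vegfb and Hif1a) and 5 lowered, which included Kdr, Kitlg and Kit. The stem cell factor receptor Kit differed by -0.20 (SE 0.040, adjusted p = 4.0e-04). Of 30 genes of the integrated stress response, 1 rose and 2 fell. Gdf15, a stress-induced secreted factor, rose by 0.44 (SE 0.11, adjusted p = 0.0065), while the asparagine synthetase gene Asns fell, at -0.17 (SE 0.038, adjusted p = 0.0012) and the leucine transporter gene Slc7a5 at -0.15 (SE 0.036, adjusted p = 0.0049). In the fit without number 13, the calls in these lists were none raised and 3 lowered for AMPK, 1 and 1 for NF-κB, 2 and 6 for hypoxia, and as many as with it for the others. With number 13 kept, the shares called for MAP kinase feedback and the integrated stress response were near the 8.66% of all tested transcripts. Those of the NF-κB list and of complex I were below it, and that of the hypoxia list was above it.

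Glycolysis and ChREBP targets had the largest shares of lowered members among the lists with at least 10 measured, and which of both was first changed without number 13. For these and the lipid synthesis lists below, the shares over all tested transcripts were 4.48% lowered and 4.17% raised. Of 25 glycolysis genes, 11 fell and 1 rose, with a median of -0.14, and 12 fell without number 13. Gapdh had 3026, 3587 and 4180 FPKM in HG + drugs, against 3712, 4118 and 4592 FPKM in HG and 3124, 3336 and 3761 FPKM in NG, a difference of -0.20 (SE 0.031, adjusted p = 6.2e-06), and the pyruvate kinase gene Pkm 1011, 1126 and 1320 FPKM in HG + drugs, against 1175, 1284 and 1404 FPKM in HG and 933, 1083 and 1210 FPKM in NG, a difference of -0.18 (SE 0.029, adjusted p = 8.5e-06). Eno1, Gpi, Pfkl, Pklr, Pfkfb3, Aldoc, Tpi1 and Pfkfb4 were among the others that fell. The groups overlapped, and both Gapdh and Pkm were lower in 18 of 19 numbers. Gapdh has processed copies in the genome, so reads may be divided among near-identical entries. Pfkfb2, an isoform of the enzyme that makes the activator of phosphofructokinase, rose by 0.37 (SE 0.089, adjusted p = 0.0040) as a single entry and by 0.17 (adjusted p = 0.0010) summed over its entries.

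ChREBP targets, some of which are also in the glycolysis list, had 10 of 25 lowered and 1 raised (Mlx), with a median of -0.14. When number 13 was left out, 14 fell. The transketolase gene Tkt, of the pentose phosphate pathway, had 166, 198 and 237 FPKM in HG + drugs, against 218, 235 and 272 FPKM in HG and 138, 147 and 162 FPKM in NG, a difference of -0.25 (SE 0.031, adjusted p = 5.5e-08). Acly, which makes cytosolic acetyl-CoA from citrate, had a median of 728 FPKM in HG + drugs, against 849 FPKM in HG and 562 FPKM in NG, a difference of -0.23 (SE 0.040, adjusted p = 4.9e-05). Txnip, an inhibitor of thioredoxin that glucose induces, had 77.5, 192 and 267 FPKM in HG + drugs, against 201, 249 and 306 FPKM in HG and 79.2, 100.3 and 181 FPKM in NG. Its difference was -0.39 (SE 0.10, adjusted p = 0.0097), lower in 18 of 19 numbers.

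Calls in the lists of lipid synthesis were all in the lowered direction. Fatty acid synthesis had 5 of 22 lowered and none raised, with Acss2, a cytosolic acetyl-CoA synthetase, at -0.26 (SE 0.050, adjusted p = 2.5e-04) and the desaturase gene Fads2 at -0.14 (SE 0.029, adjusted p = 6.3e-04). Cholesterol synthesis and uptake had 7 of 29 lowered and none raised, with a median of -0.12 over the 29. The lanosterol demethylase gene Cyp51 fell, at -0.25 (SE 0.056, adjusted p = 0.0016) and Dhcr7, which encodes the final reductase of the pathway, at -0.16 (SE 0.043, adjusted p = 0.011). Without number 13, 7 of the 22 and 10 of the 29 fell and 1 of the 22 rose. Acat3, an acetyl-CoA acetyltransferase gene, was called at -0.27 (SE 0.078, adjusted p = 0.019), and its adjusted p was 0.051 without number 1.

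Fatty acid oxidation had 7 of 25 raised and 1 lowered (median 0.040), or 9 and 2 without number 13. Of all tested transcripts, 4.17% were raised and 4.48% lowered. The mitochondrial long-chain dehydrogenase gene Acadl had 27.7, 33.9 and 37.2 FPKM in HG + drugs, against 24.6, 29.5 and 35.7 FPKM in HG and 27.9, 32.4 and 38.0 FPKM in NG, a difference of 0.17 (SE 0.036, adjusted p = 9.5e-04). Slc25a20, the carnitine-acylcarnitine carrier gene, rose by 0.23 (SE 0.050, adjusted p = 0.0014). Acadl and Slc25a20 were each higher in 18 of 19 numbers. The electron transfer genes Etfdh, Etfa and Etfb were also among the 7. Hadh, a hydroxyacyl-CoA dehydrogenase gene that in β-cells also restrains glutamate dehydrogenase, was the exception at -0.16 (SE 0.040, adjusted p = 0.0075).

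Beta-cell identity had 10 of 33 members raised and 1 lowered, with a median of 0.070 and the same counts without number 13. The shares over all tested transcripts were 4.17% raised and 4.48% lowered. Rfx6, a transcription factor of islet development, had 13.3, 15.8 and 20.3 FPKM in HG + drugs, against 10.7, 13.1 and 15.8 FPKM in HG and 13.1, 18.0 and 21.7 FPKM in NG, a difference of 0.26 (SE 0.050, adjusted p = 2.4e-04). Among the others, Prlr, which encodes the receptor of prolactin, rose by 0.26 (SE 0.055, adjusted p = 0.0012), Neurod1, a transcription factor that drives insulin transcription, by 0.18 (SE 0.042, adjusted p = 0.0019), and Slc30a8, the zinc transporter of insulin granules, by 0.12 (SE 0.026, adjusted p = 0.0018). The cation channel gene Trpm5, which takes part in glucose-induced electrical activity, fell, at -0.25 (SE 0.067, adjusted p = 0.0097). Ins2 had 3421, 6261 and 9507 FPKM in HG + drugs, against 2743, 4362 and 7843 FPKM in HG and 10691, 16026 and 22060 FPKM in NG, a difference of 0.42 (SE 0.13, adjusted p = 0.029), and Ins1 46110, 60906 and 85228 FPKM in HG + drugs, against 33890, 51276 and 69436 FPKM in HG and 53963, 65525 and 87186 FPKM in NG, a difference of 0.25 (SE 0.079, adjusted p = 0.035). Both were higher in 18 of 19 numbers, but their spread was wide, and they lost the call without number 3 (adjusted p = 0.051 for Ins2 and 0.062 for Ins1), 7 (0.052 and 0.057) or 10 (0.051 and 0.057), Ins2 also without 15 (0.052), and Ins1 also without 16 (0.053) or 17 (0.056). Reads can be divided between these similar genes.

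Prohormone processing and granule proteins had 7 of 38 raised and 3 lowered, or 9 and 4 without number 13. For this list and the next, the shares over all tested transcripts were 4.17% raised and 4.48% lowered. Pcsk2, the proprotein convertase PC2, had 526, 655 and 761 FPKM in HG + drugs, against 447, 543 and 634 FPKM in HG and 691, 772 and 907 FPKM in NG, a difference of 0.24 (SE 0.040, adjusted p = 2.6e-05). Syt13, Rab27a and Rph3al rose, while the vesicle genes Syt5, Syt7 and Cadps fell. Peptide hormones and receptors had 5 of 22 raised and 2 lowered, or 7 and 2 without number 13. Npy, which encodes neuropeptide Y, had 177, 235 and 325 FPKM in HG + drugs, against 153, 176 and 216 FPKM in HG and 277, 352 and 421 FPKM in NG, a difference of 0.38 (SE 0.058, adjusted p = 4.0e-06). The purinergic receptor gene P2ry1 had a median of 14.7 FPKM in HG + drugs, against 9.88 FPKM in HG and 23.8 FPKM in NG, a difference of 0.40 (SE 0.059, adjusted p = 2.9e-06).

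Cell cycle lists had lowered members and no raised ones, while over all tested transcripts 4.48% were lowered and 4.17% raised. The share of lowered centrosome genes was near that of all tested transcripts. DNA replication and licensing had 8 of 46 lowered (median -0.069), with the clamp loader gene Rfc3 at a median of 40.3 FPKM in HG + drugs, against 47.0 FPKM in HG and 40.5 FPKM in NG, a difference of -0.21 (SE 0.038, adjusted p = 1.0e-04), and the licensing helicase gene Mcm5 at -0.16 (SE 0.035, adjusted p = 0.0012). Mitosis had 6 of 55 lowered (median -0.052), led by the spindle motor gene Kif11 (-0.14, SE 0.028, adjusted p = 6.4e-04), G1 cyclins, kinases and inhibitors 3 of 23, led by Mycn (-0.36, SE 0.092, adjusted p = 0.0062) and the D-type cyclin gene Ccnd2 (-0.15, SE 0.039, adjusted p = 0.0078), and centrosome genes 2 of 34, the γ-tubulin gene Tubg1 (-0.11, SE 0.024, adjusted p = 0.0018) and Tubgcp3 (-0.11, SE 0.029, adjusted p = 0.0093). Lowered members were 11 of 46, 7 of 55, 4 of 23 and 3 of 34 in the fit without number 13. Cytosolic ribosomal proteins had none of 76 called by limma, with 2 at an unadjusted p under 0.05, and 2 lowered without number 13.

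Endoplasmic reticulum folding genes had 3 of 38 raised and 1 lowered, with the chaperone cofactor gene Sdf2l1 at 0.41 (SE 0.10, adjusted p = 0.0051) and the disulfide isomerase genes Pdia6 at 0.11 (SE 0.030, adjusted p = 0.012) and P4hb at -0.11 (SE 0.023, adjusted p = 9.7e-04). Potassium and calcium channels had 1 of 48 raised (the sodium channel gene Scn3a, placed on this list, at 0.21, SE 0.054, adjusted p = 0.0076) and 4 lowered, led by the potassium channel subunit gene Kcnab3 (-0.42, SE 0.091, adjusted p = 0.0012). In the fit without number 13, 5 of the 48 rose and 4 fell. Apoptosis had 2 of 36 in each direction, oxidative stress and glutathione 3 of 41 in each, and the circadian clock 1 of 18 lowered (Nfil3). The shares called in the folding, channel and apoptosis lists were near the 8.66% of all tested transcripts. That of oxidative stress and glutathione was above it, and that of the circadian clock was below it. Of the markers of other cells, 3 of the other islet list, 1 acinar or ductal gene and 1 immune or stromal gene passed the filter on low values. Of these 5, the acinar or ductal list held the only call, a raised one, and the 4 defining acinar markers summed to at most 0.25 FPKM in any library.

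**Figure D4:**
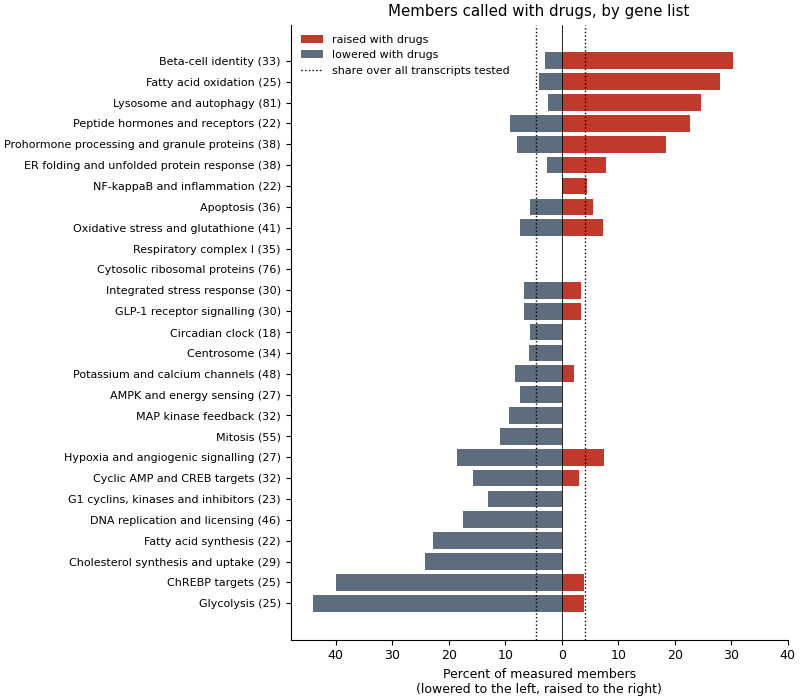
Share of the measured members of each gene list called as raised with drugs (red, to the right of 0) or lowered (grey, to the left), in percent (x axis), with the number measured in brackets and dotted lines at the shares over all tested transcripts, 4.17% raised and 4.48% lowered. Glycolysis has 11 of 25 lowered at one end, and beta-cell identity 10 of 33 raised at the other.

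Of the 923 transcripts called with drugs, 150 (16.3%) were not called in HG against NG, a comparison in which 40.1% of all tested transcripts were called. Both comparisons share the 20 HG libraries. Of the 150, 84 rose and 66 fell, and 120 (66 raised and 54 lowered) had a 95% interval of HG minus NG within ±0.2, so that a change of more than 0.2 with HG lay outside the interval. The median absolute difference of the 150 with drugs was 0.15, and the 3 over 0.5 were the divided entries of Grin1, Snap25 and Tceb1. In HG + drugs against NG, 65 of the 150 were called as well. Without the libraries numbered 13 the count was 231, and 136 of the 150 stayed in it.

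Raised transcripts among the 120 were led by Gaa, the acid α-glucosidase that degrades lysosomal glycogen. It had 185, 231 and 273 FPKM in HG + drugs, against 171, 198 and 220.4 FPKM in HG and 183, 204 and 227 FPKM in NG, a difference of 0.21 (SE 0.036, adjusted p = 4.7e-05) with drugs and of -0.050 (SE 0.036, adjusted p = 0.28) for HG minus NG. The highest HG library of Gaa was number 13, and the gene was higher in 17 of 19 numbers. Ctsd, which encodes the lysosomal protease cathepsin D, had 204, 238 and 279 FPKM in HG + drugs, against 196, 215 and 231 FPKM in HG and 205, 226 and 245 FPKM in NG, a difference of 0.14 (SE 0.033, adjusted p = 0.0031) with drugs and of -0.061 for HG minus NG. HG + drugs overlapped HG and NG in both genes, and their promoter stretches with an E-box are shown above. Among genes raised with drugs and not called with HG, CACGTG was in 6 of 66 promoters (9.09%), against 9.84% of all tested promoters. Acsl6, an acyl-CoA synthetase gene, rose by 0.18 (SE 0.037, adjusted p = 8.9e-04), Etfdh, which passes electrons from fatty acid oxidation to the respiratory chain, by 0.15 (SE 0.035, adjusted p = 0.0027), and Ddx58, which encodes the RNA sensor RIG-I, by 0.21 (SE 0.049, adjusted p = 0.0024). Their differences for HG minus NG were 0.037, -0.079 and -0.10. The others of the 8 with the smallest adjusted p were Dnaja3 (0.14), Armcx2 (0.11) and Rgs20 (0.30). Dnaja3 encodes a mitochondrial chaperone and Rgs20 a regulator of G protein signalling. Summed over entries, Dnaja3 was not called (0.091, adjusted p = 0.055). For HG minus NG, the intervals of Etfdh (-0.15 to -0.010) and Dnaja3 (-0.15 to -0.012) lay below 0, opposite to their rise with drugs. Those of the other raised genes of the 8 included 0, that of Ddx58 only just (-0.19 to 2.2e-04).

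Lowered transcripts among the 120 were led by the kinesin gene Kifc3. It had 12.7, 15.2 and 18.8 FPKM in HG + drugs, against 15.7, 17.6 and 19.9 FPKM in HG and 14.2, 17.0 and 18.2 FPKM in NG, a difference of -0.19 (SE 0.033, adjusted p = 6.3e-05) with drugs and of 0.073 (SE 0.032, adjusted p = 0.067) for HG minus NG. Syt5, a synaptotagmin gene of secretory vesicles, had 120.4, 146 and 167 FPKM in HG + drugs, against 150.1, 165 and 197 FPKM in HG and 136, 157 and 196 FPKM in NG, a difference of -0.22 (SE 0.039, adjusted p = 7.9e-05) with drugs and of 0.081 for HG minus NG. For HG minus NG, the 95% intervals of Kifc3 (0.0078 to 0.14) and Syt5 (0.0044 to 0.16) lay above 0, opposite to their fall with drugs. Cbx8, which encodes a subunit of polycomb repressive complex 1, had 14.5, 17.6 and 21.1 FPKM in HG + drugs, against 17.0, 21.1 and 23.4 FPKM in HG and 16.6, 20.3 and 24.6 FPKM in NG, a difference of -0.21 (SE 0.043, adjusted p = 5.8e-04) with drugs and of -0.0020 (SE 0.043, adjusted p = 0.98) for HG minus NG. Syt5 and Cbx8 were each lower in 18 of 19 numbers. Dusp1 belonged here as well, with a difference of 0.031 for HG minus NG (95% interval -0.077 to 0.14). The G protein β-subunit gene Gnb2 fell, at -0.080 (SE 0.017, adjusted p = 0.0012), the smallest of these 16 differences, with levels of 322, 338 and 355 FPKM in HG + drugs, against 338, 354 and 389 FPKM in HG. Mybl1, a Myb family transcription factor gene (-0.17), the intermediate filament gene Prph (-0.14) and the sodium, potassium and chloride cotransporter gene Slc12a2 (-0.20) completed the 8. TGACGTCA was in 5 of 53 promoters of genes lowered with drugs and not called with HG (9.43%), those of Dusp1, Cbx8, Gpcpd1, Lrrc8a and Ptprs, and in 2 of 66 of those raised (3.03%). Over all tested promoters it was in 3.52%. The shorter TGACG was in 35.85% of the 53 and 33.88% of all tested promoters. These shares were not tested.

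**Figure D5:**
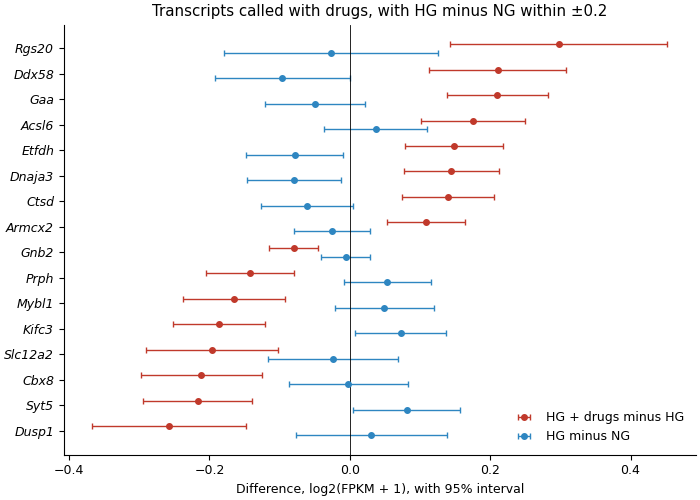
Difference with its 95% interval from limma (x axis, log2(FPKM + 1)) for the 8 raised and 8 lowered transcripts with the smallest adjusted p among those not called with HG and with an HG minus NG interval within ±0.2 (y axis). Red is HG + drugs minus HG and blue is HG minus NG, and Gaa, for example, lies at 0.21 with drugs and -0.050 with HG.

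Other genes of the 150, chosen after their values were seen, included enzymes, receptors and transporters. Sat1, the rate-limiting acetyltransferase of polyamine breakdown, had 10.3, 16.5 and 22.4 FPKM in HG + drugs, against 10.1, 12.0 and 17.9 FPKM in HG and 9.81, 13.6 and 18.0 FPKM in NG, a difference of 0.35 (SE 0.075, adjusted p = 0.0011), and was higher in 18 of 19 numbers. Pls3, an actin-bundling protein gene, rose by 0.31 (SE 0.076, adjusted p = 0.0047) and Adora2a, which encodes a Gs-coupled adenosine receptor, by 0.25 (SE 0.067, adjusted p = 0.0084). Ffar3, a receptor for short-chain fatty acids, differed by 0.25 (SE 0.075, adjusted p = 0.025), and this call was lost without number 4 (adjusted p = 0.052), 5 (0.056), 10 (0.053) or 15 (0.058). The transferrin receptor gene Tfrc had 139, 181 and 229.7 FPKM in HG + drugs, against 164, 217 and 279.6 FPKM in HG and 172, 231 and 286 FPKM in NG, a difference of -0.25 (SE 0.065, adjusted p = 0.0091), and the cation channel gene Trpm2 fell, at -0.17 (SE 0.049, adjusted p = 0.018). Tfrc had lower medians in HG + drugs than in both HG and NG. For HG minus NG, the intervals of Ffar3 and Trpm2 lay within ±0.2. Those of Sat1 (-0.21 to 0.086), Pls3 (-0.25 to 0.054), Tfrc (-0.22 to 0.035) and Adora2a (-0.27 to -0.0061) did not. A fall of more than 0.2 with HG thus lay inside these intervals. That of Adora2a lay below 0, opposite to its rise with drugs.

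Lysosomal genes were described through a list written after their values had been seen. Lysosomes degrade proteins, glycans and lipids with acid hydrolases, and many of their genes are known to be driven by TFEB and its relatives, which bind E-box elements. Of 81 measured genes of the lysosome and autophagy, 20 rose and 2 fell with drugs, with a median of 0.049 over the 81 and 61 of them above 0. Over all tested transcripts, 4.17% were raised with drugs and 4.48% lowered. In HG against NG, 10 of the 81 were called as raised and 29 as lowered, while 40.1% of all tested transcripts were called. With number 13 left out, 26 rose and 3 fell. The hydrolase genes Ctsl1, Gaa, Manba, Ctsd, Ctsa, Hexa, Asah1, Neu1, Fuca1 and Tpp1 were among the 20. The cathepsin L gene Ctsl1 had 93.6, 134 and 163 FPKM in HG + drugs, against 88.0, 106 and 130.0 FPKM in HG and 107, 126 and 137 FPKM in NG, a difference of 0.33 (SE 0.050, adjusted p = 4.4e-06). Wipi1, which acts in autophagosome formation, rose by 0.32 (SE 0.055, adjusted p = 4.4e-05), the tetraspanin gene Cd63 by 0.21 (SE 0.041, adjusted p = 2.3e-04) and the cholesterol transfer gene Npc2 by 0.22 (SE 0.062, adjusted p = 0.016). Lgmn and the thioesterase gene Ppt1 fell. CACGTG was in 3 of 15 promoters found for raised members and in 14 of 64 found for the list. Over all tested promoters it was in 9.84%. The extended form TCACGTGA, searched after the data were seen, was in 1 of the 15 and 8 of the 64. It was in 1.82% of tested promoters and 0.867% of all RefSeq promoters.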

How the data were processed

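Polyadenylated RNA was made into libraries with the TruSeq RNA v2 chemistry. According to the authors, reads passed FastQC 1.0.0 and trimming, were aligned to rn5 in TopHat with Bowtie and were assigned to RefSeq transcripts in Cufflinks, and the FPKM values were deposited for 18331 transcripts. An FPKM moves with the total of its library and with how Cufflinks divides reads among the entries of 932 symbols. The paper's methods describe the replicates as independent experiments. Depth was derived from low FPKM, of which 85.9% of 79569 were whole numbers of reads within 0.05 reads. Spreadsheet damage to 28 names was repaired for 27.

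Log2(FPKM + 1) of transcripts averaging 1 FPKM or more was tested with limma 3.58.1, run in R 4.3.3 with a variance trend and robust moderation and the 3 groups in 1 fit, Benjamini-Hochberg adjustment and a threshold of 0.05. On simulated data for HG + drugs against HG with the same 10660 transcripts, 40, 49, 49 and 49 of 50 changed transcripts were recovered at differences of 0.25, 0.5, 1 and 2, and 6 of 10460 unchanged ones were called. The simulated noise was independent between transcripts, with no shared effect of a library or number. Its smallest difference, 0.25, was above the median absolute difference of the real calls, 0.18. Named genes were the 12 largest rises and falls (transcripts of at least 300 bases), 8 raised and 8 lowered that were not called with HG (interval of HG minus NG within ±0.2), up to 3 called members of each list, fixed genes of the drugs' pathways, and others said to be chosen after seeing values. A few genes that these rules name are not reported here. The comparison, gene lists and rules were chosen with earlier results of these data known. Gene lists were described by counts and medians, with no set test. Alternatives were other pseudocounts, filters and scalings, a replicate block, terms for the sets, array weights and leaving out each number. Sets of 15 consecutive sample numbers stand in for the unassigned batches. Tables and figures were made in Python 3.11.15 with pandas 2.3.3, numpy 2.4.6 and matplotlib 3.10.9. Promoters came from RefSeq (GRCr8), while FPKM rest on rn5.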

Additional observations from a re-analysis of the deposited data

How the results depend on the processing

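Counts of calls moved by less than 1.5 times under another pseudocount, filter or scaling, with sets of numbers as a term, without number 16, with array weights, with only HG and HG + drugs in the fit and with FPKM summed per symbol, where between 772 and 1141 transcripts or symbols were called. Without each replicate number in turn, 691 (number 1) to 1235 (number 13) transcripts were called, 322 to 631 raised and 369 to 604 lowered, and 106 (number 1) to 230 (number 13) were called with drugs and not with HG. Leaving out number 13 in HG + drugs and HG while keeping it in NG, which was added after the data were seen, gave 1255 calls, of which 231 were not called with HG. With a replicate block, 2096 transcripts were called (1015 raised and 1081 lowered), and 413 of them were not called with HG. For secretion and apoptosis, the paper plots change from NG with a line for each independent experiment, which links its treatments. No source says that RNA libraries of equal number come from the same experiment. Residuals of HG + drugs and HG libraries of equal number had a mean correlation of 0.14 (lowest -0.09, highest 0.37), against -0.0072 for unequal numbers. It was above 0.1 in 13 of 19 numbers and not in all, and the closest HG library had the same number for 9 of 19 HG + drugs libraries. Both are hints of a shared experiment, which the main fit does not use. With the block, the 120 named genes called were still called, and Glp1r, not called without it, was called (adjusted p = 0.025).

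Of 120 named genes called, 20 lost the call in at least 1 alternative, mostly without 1 number. Quantile normalization gave Ins1, the top transcript of each library, a difference of 0. Within single sets of numbers, Grin1 (-0.0176 in numbers 16 to 20) and Gclm (-0.0265 in numbers 11 to 15) turned in direction, and the cause was not tested. At about 13.9 reads per FPKM, transcripts near 1 FPKM are the least precise.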

Other observations

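Other transcripts called with drugs and not with HG were those of Gclm, Blvrb and Osgin1, chosen after their values were seen. Gclm, the modifier subunit of the rate-limiting enzyme of glutathione synthesis, had a median of 11.4 FPKM in HG + drugs, against 10.7 FPKM in HG and 10.7 FPKM in NG, and a difference of 0.19 (SE 0.060, adjusted p = 0.039) with drugs. Blvrb, which encodes a biliverdin reductase, rose by 0.22 (SE 0.064, adjusted p = 0.018) and the stress-induced gene Osgin1 by 0.21 (SE 0.070, adjusted p = 0.045), and both were within 0.1 of NG in HG minus NG (-0.085 and -0.053). The interval of HG minus NG lay within ±0.2 for Osgin1, but not for Gclm (-0.21 to 0.031) or Blvrb (-0.21 to 0.042). The calls of Gclm and Osgin1 were narrow. Gclm was not called when any of numbers 1, 6, 7, 9, 10, 11, 16, 17, 19 or 20 was left out (adjusted p between 0.051 and 0.075), and Osgin1 when any of numbers 1, 2, 3, 8, 10, 12, 14, 15, 16, 18 or 20 was left out (adjusted p between 0.054 and 0.10). These 3 genes are known targets of the antioxidant transcription factor NRF2. Of other known targets, Nqo1 differed by 0.25 with drugs (adjusted p = 0.12), Hmox1 by 0.10 (0.73), Srxn1 by 0.10 (0.65), Gclc by 0.10 (0.45) and Txnrd1 by 0.051 (0.65), and none of these passed the limma test.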
